A study of Mus musculus with 10 samples.

Results

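The 10 genes described here are 4 Wnt ligands (Wnt5a, Wnt5b, Wnt11 and Wnt9b) and 6 Wnt receptors (Fzd3, Fzd6, Fzd7, Ror1, Ror2 and Ryk) linked to non-canonical Wnt signalling. They were taken by symbol from the platform annotation, among 22180 named genes. The set was chosen with earlier results of these data known. Each of the 10 had 1 probe set with its symbol, so no choice between probe sets was needed. RNA of mouse intestinal cells sorted by flow cytometry was hybridised to 10 Affymetrix MoGene 2.0 ST arrays, and the values are log2 intensities normalised by the authors.

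The Flattop group (4 arrays) held crypt cells labelled as expressing Flattop, from FltpT2AiCre mice crossed with Gt(ROSA)26mTmG, on a mixed C57BL/6J, CD1 and 129/SvJ background. The Lgr5-high group (6 arrays) held stem cells with high Lgr5 and GFP from Lgr5-EGFP-IRES-creERT2 mice on C57BL/6J. All mice were 3 to 6 months old. The mTmG allele is a membrane colour reporter that Cre switches permanently, so cells whose ancestors had Cre carry the switched colour as well. The sort gates are not described. Group, genotype and strain coincide and cannot be told apart. Whether replicates are separate animals is not in the labels, and the p-values therefore cover the spread among these arrays alone, part of which may be technical.

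Non-canonical Wnt signalling is the branch that does not work through stabilised beta-catenin. Ligands such as Wnt5a and Wnt11 bind Frizzled proteins together with the co-receptors Ror1, Ror2 or Ryk, and the signal runs through Dishevelled to small GTPases, Jun kinases and calcium, shaping cell polarity and movement. In the intestine Wnt5a comes mainly from the mesenchyme under the epithelium, whereas the receptors can be made by epithelial cells. The comparison bears on whether cells marked by Flattop, a planar polarity and cilia protein, differ from Lgr5-high stem cells in the RNA for these ligands and receptors.

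Before the genes themselves, the samples were checked against their labels. Lgr5 averaged 8.37 ± 1.42 over Flattop arrays (SD, n = 4) and 9.47 ± 0.33 over Lgr5-high arrays (SD, n = 6), and Cfap126, which encodes Flattop, averaged 5.42 ± 0.74 and 4.996 ± 0.349. Neither difference passed limma's test (adjusted p = 0.533 and 0.678). Over all probe sets, pairs of Flattop arrays correlated at 0.869 to 0.941 (Pearson), pairs of Lgr5-high arrays at 0.854 to 0.915 and mixed pairs at 0.825 to 0.931. Array medians lay between 4.56 and 4.77. Title numbers fall into a range from 1 to 8 and a range from 38 to 46, each with 2 Flattop and 3 Lgr5-high arrays, and the labels do not say what the numbers mark.

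None of the 10 genes passed the comparison of Flattop with Lgr5-high cells. In limma with Benjamini-Hochberg adjustment over all genes, 0 of 10 had an adjusted p under 0.05, where 0.915% of all genes did (0.902% toward higher and 0.0135% toward lower values in Flattop). Wnt11 and Fzd3 had an unadjusted p under 0.05, both toward lower values in Flattop, which is 2 of 10 genes against 9.78% of all genes in either direction and 3.8% toward lower values. The groups overlapped for all 10 genes, while they did not overlap for 2.98% of all genes (0.974% with Flattop lower). In bulk samples fewer cells of a type and less RNA per cell cannot be told apart.

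All 10 differences were negative (Flattop minus Lgr5-high) and their median was -0.23, but the sign turned for Wnt5b (0.04) and Ror1 (0.01) after a second quantile normalisation and for Wnt5b (0.04) when arrays were centred on their medians. Over all genes 61.5% of differences were negative and the median was -0.06. The share depended on brightness. It was 77.3% for genes with a mean log2 intensity under 4, 70.2% for 4 to 5, 55.5% for 5 to 6, 43.6% for 6 to 7 and 46.5% for 7 and above. Fzd3 and Ror1 fall in the dimmest of these classes, Wnt5a, Wnt5b and Fzd6 in the next and Wnt11, Wnt9b, Fzd7 and Ror2 in the third, while Ryk is in the brightest. Set against genes of like brightness, 8 of the 10 lay under the median of their class and 5 under its lower quartile: Wnt11, Fzd3, Fzd6, Ror2 and Ryk. The brightness classes were chosen after these values were seen.

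**Figure D1:**
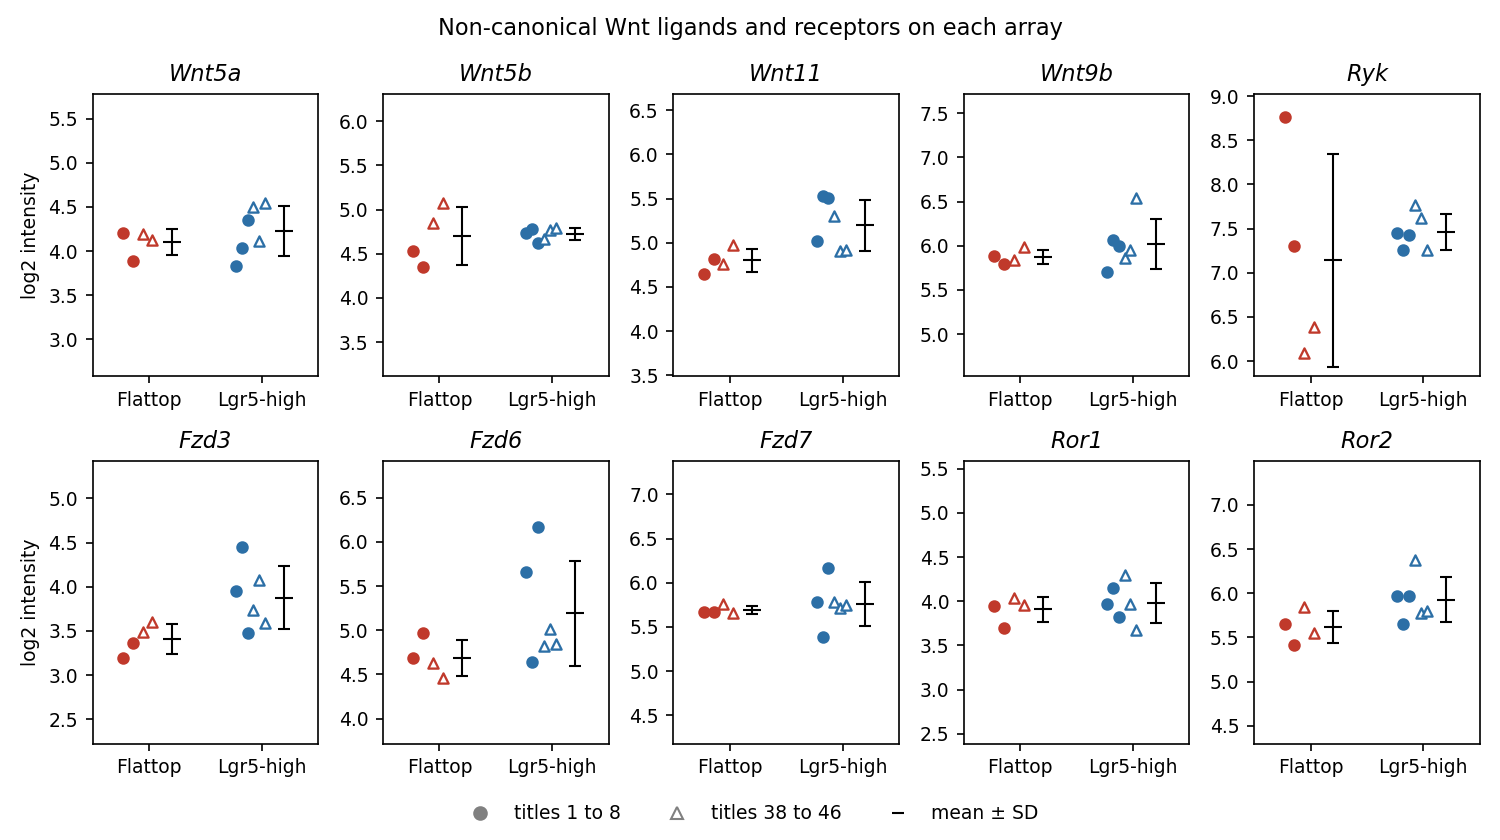
Log2 intensity of each of the 10 genes on each array, Flattop (red) left of Lgr5-high (blue), with filled circles for titles 1 to 8, open triangles for titles 38 to 46 and the mean ± SD beside the points. The y axes span equal lengths and start at different values, since levels of different probe sets are not comparable. Groups overlap in every panel, and Ryk has the widest spread among Flattop arrays, 6.09 to 8.77.

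Among the ligands, Wnt5a, the best known activator of the non-canonical branch (Entrez gene 22418), was dim in both groups. It read 4.20, 3.89, 4.19 and 4.12 in Flattop replicates 1 to 4, against a lowest value of 3.83, a median of 4.23 and a highest of 4.54 in Lgr5-high arrays. Every Flattop value lay inside the Lgr5-high range. Means were 4.10 ± 0.15 (SD, n = 4) for Flattop and 4.23 ± 0.28 (SD, n = 6) for Lgr5-high, a difference of -0.13 (SE 0.16, 95% interval -0.49 to 0.23, limma adjusted p = 0.812). The interval leaves room for at most 1.40-fold lower or 1.17-fold higher intensity in Flattop. The title ranges alone gave -0.03 (1 to 8) and -0.23 (38 to 46) for Wnt5a. The probe set lay under the median of its array on all 10 arrays. No detection calls were at hand, so whether values this low are above background is not known.

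Wnt5b, the closest relative of Wnt5a (Entrez gene 22419), had nearly equal means in the groups and very unequal spread. Flattop replicates 1 to 4 read 4.53, 4.35, 4.85 and 5.08, whereas the Lgr5-high arrays lay between 4.63 and 4.79 with a median of 4.75. Flattop replicates 1 and 2 were below every Lgr5-high array and replicates 3 and 4 above every one. The means of 4.70 ± 0.32 (SD, n = 4) for Flattop and 4.73 ± 0.07 (SD, n = 6) for Lgr5-high differed by -0.02 (SE 0.15, 95% interval -0.35 to 0.30, limma adjusted p = 0.965). Of all genes 41.8% had an SD among Flattop arrays at least as large as that of Wnt5b, and 99.4% had one among Lgr5-high arrays at least as large. The Flattop spread of Wnt5b was thus common, and its Lgr5-high arrays were closer together than for most genes. For Wnt5b the low title range gave -0.27 and the high range 0.22, and this change did not pass the interaction test (limma adjusted p = 0.679). The probe set was above the median of its array on only 2 of 4 Flattop and 4 of 6 Lgr5-high arrays. Whether such values are above background is not known.

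Wnt11, a ligand of polarised cell movement in vertebrate embryos (Entrez gene 22411), had the largest difference among the ligands. Its values were 4.65, 4.81, 4.76 and 4.97 in Flattop replicates 1 to 4, and 4.91, 5.16 and 5.53 as the lowest, median and highest of the Lgr5-high arrays. Flattop replicates 1 to 3 were below every Lgr5-high array, and only replicate 4 reached into their range. Flattop averaged 4.80 ± 0.13 (SD, n = 4) and Lgr5-high 5.20 ± 0.29 (SD, n = 6), which gives -0.40 (SE 0.16, 95% interval -0.75 to -0.04). That did not pass over all genes (limma adjusted p = 0.457). An exact two-sided permutation test over the 210 assignments of arrays gave p = 0.0381 for Wnt11, uncorrected for the 10 genes tested in this way. Within titles 1 to 8 the Wnt11 difference was -0.62, and within titles 38 to 46 it was -0.17, where the groups overlapped.

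Wnt9b, known from the mouse kidney for both canonical signalling and the polarity of tubule cells (Entrez gene 22412), was steady across the Flattop arrays at 5.89, 5.79, 5.84 and 5.98. The Lgr5-high arrays ran from 5.70 through a median of 5.97 to 6.54, so they enclosed all Flattop values. Its difference of -0.14 (SE 0.16, 95% interval -0.49 to 0.20, limma adjusted p = 0.778) came from means of 5.88 ± 0.08 (SD, n = 4) for Flattop and 6.02 ± 0.28 (SD, n = 6) for Lgr5-high. Unlike that of Wnt5a, this probe set was above the median of its array on all 10 arrays. The difference was -0.04 when Lgr5-high replicate 6, the array at 6.54, was left out. Wnt9b differed by -0.08 in the low and -0.20 in the high title range.

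**Figure D2:**
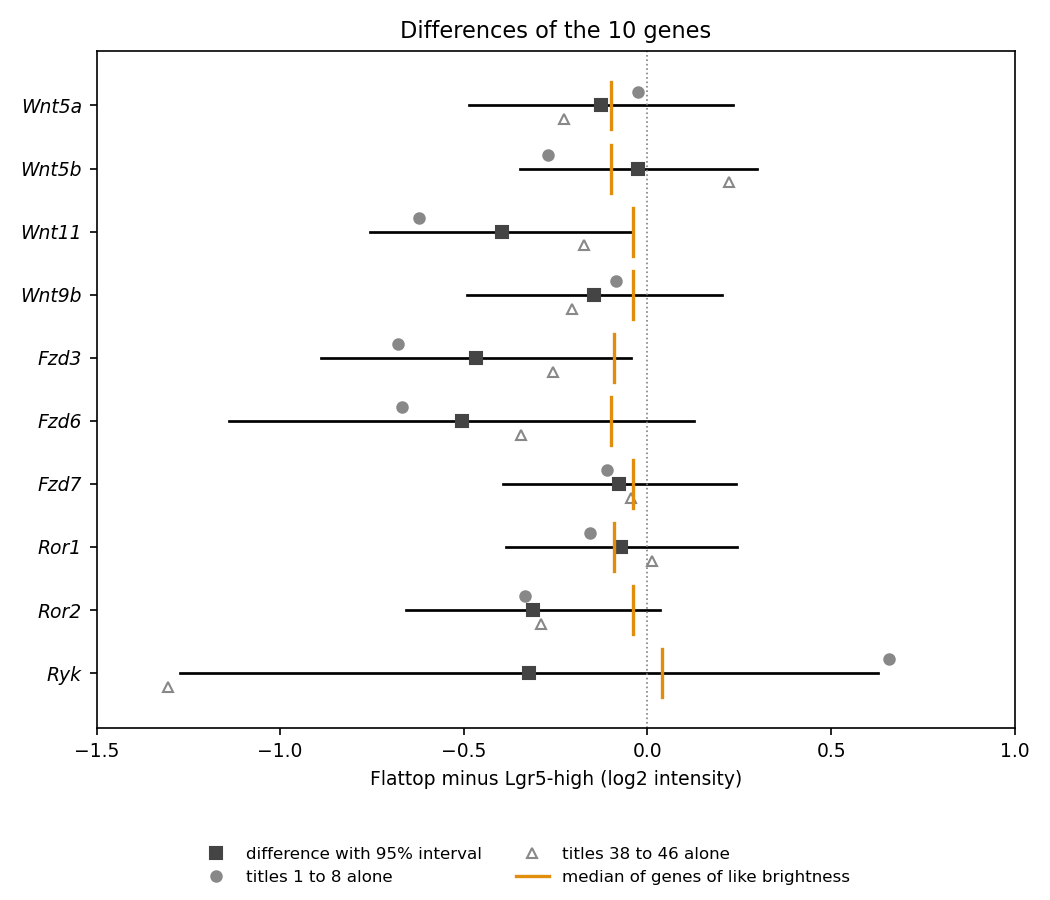
Difference of each gene, Flattop minus Lgr5-high, in log2 intensity (square) with its 95% interval (line), beside the difference within titles 1 to 8 (grey circle), within titles 38 to 46 (open triangle) and the median difference of all genes of like brightness (orange bar). The squares lie between -0.51 (Fzd6) and -0.02 (Wnt5b), and the within-range values of Ryk (0.66 and -1.31) are the farthest apart.

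Among the Frizzled receptors, Fzd3 and Fzd6 are the pair that orients hair cells, hair follicles and axons in the mouse. Fzd3 (Entrez gene 14365) read 3.20, 3.36, 3.49 and 3.60 in Flattop replicates 1 to 4 and 3.47, 3.84 and 4.45 as the lowest, median and highest of the Lgr5-high arrays. Flattop replicates 1 and 2 were below all Lgr5-high arrays. The means of 3.41 ± 0.17 (SD, n = 4) for Flattop and 3.88 ± 0.36 (SD, n = 6) for Lgr5-high differed by -0.47 (SE 0.19, 95% interval -0.89 to -0.04, limma adjusted p = 0.461, exact permutation p = 0.0476). These are very low intensities, under the lower quartile of the array on 4 of 4 Flattop and 3 of 6 Lgr5-high arrays, and the size of the difference is therefore uncertain. Titles 1 to 8 alone gave -0.68 and titles 38 to 46 alone -0.26.

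Fzd6 (Entrez gene 14368) had the largest mean difference of the 10 genes, and 2 Lgr5-high arrays carried much of it. Flattop replicates 1 to 4 read 4.68, 4.96, 4.63 and 4.46, and Lgr5-high arrays ran from 4.64 through a median of 4.93 to 6.17. Lgr5-high replicates 1 and 3 stood at 5.66 and 6.17, and the other 4 Lgr5-high arrays lay between 4.64 and 5.01. Fzd6 averaged 4.68 ± 0.21 (SD, n = 4) for Flattop and 5.19 ± 0.60 (SD, n = 6) for Lgr5-high, and the difference of -0.51 (SE 0.29, 95% interval -1.14 to 0.13) did not pass (limma adjusted p = 0.613). It was -0.31 without Lgr5-high replicate 3, over 1.5 times smaller. Within titles 1 to 8, which hold both bright arrays, it was -0.67, and within titles 38 to 46 it was -0.34. The Fzd6 probe set was above the median of its array on 2 of 4 Flattop and 5 of 6 Lgr5-high arrays. For its lower values, whether they are above background is not known.

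Fzd7 (Entrez gene 14369), which in the mouse also carries canonical Wnt signals in Lgr5 stem cells, varied least over the arrays of these 3 Frizzled genes. Its Flattop values were 5.67, 5.67, 5.75 and 5.65, against 5.39, 5.76 and 6.17 as the lowest, median and highest of the Lgr5-high arrays. All 4 Flattop arrays lay inside the Lgr5-high range. Between means of 5.69 ± 0.05 (SD, n = 4) for Flattop and 5.76 ± 0.25 (SD, n = 6) for Lgr5-high the difference was -0.08 (SE 0.14, 95% interval -0.39 to 0.24, limma adjusted p = 0.878), so a change beyond 1.31-fold lower or 1.18-fold higher intensity lies outside the interval. The title ranges gave -0.11 and -0.04 for Fzd7.

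The co-receptors Ror1 and Ror2 are receptor tyrosine kinase-like proteins that bind Wnt5a. Ror1 (Entrez gene 26563) read 3.95, 3.70, 4.03 and 3.95 in Flattop replicates 1 to 4 and 3.68, 3.97 and 4.30 as the lowest, median and highest of the Lgr5-high arrays. It was under the median of the array on all 10 arrays, and all Flattop values lay inside the Lgr5-high range. Its difference was -0.07 (SE 0.14, 95% interval -0.39 to 0.24, limma adjusted p = 0.885), with means of 3.91 ± 0.14 (SD, n = 4) for Flattop and 3.98 ± 0.22 (SD, n = 6) for Lgr5-high. In the low and the high title range the Ror1 difference was -0.16 and 0.01.

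Ror2 (Entrez gene 26564) was brighter relative to its arrays, above the median on all 10. Flattop replicates 1 to 4 read 5.65, 5.42, 5.84 and 5.55, and the Lgr5-high arrays had a lowest value of 5.66, a median of 5.88 and a highest of 6.38. Flattop replicates 1, 2 and 4 were below every Lgr5-high array, replicate 1 by a very small margin, and replicate 3 was not. Means of 5.61 ± 0.18 (SD, n = 4) for Flattop and 5.93 ± 0.25 (SD, n = 6) for Lgr5-high gave -0.31 (SE 0.16, 95% interval -0.66 to 0.04, limma adjusted p = 0.571). The Ror2 difference was alike in both title ranges, -0.33 and -0.29.

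Ryk (Entrez gene 20187), a transmembrane protein with a Wnt-binding domain and an inactive kinase domain, was above the upper quartile of the array on 3 of 4 Flattop and 6 of 6 Lgr5-high arrays. It read 8.77, 7.31, 6.09 and 6.39 in Flattop replicates 1 to 4, against 7.26, 7.44 and 7.77 as the lowest, median and highest of the Lgr5-high arrays. Flattop replicate 1 was above every Lgr5-high array and replicates 3 and 4 below every one. Mean levels were 7.14 ± 1.20 (SD, n = 4) for Flattop and 7.46 ± 0.20 (SD, n = 6) for Lgr5-high, and the difference of -0.32 (SE 0.43, 95% interval -1.27 to 0.63) did not pass (limma adjusted p = 0.822). Of all genes 2.29% had an SD among Flattop arrays at least as large as that of Ryk, and 73.8% had one among Lgr5-high arrays at least as large as its own.

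The Ryk difference had opposite signs in the title ranges. Within titles 1 to 8 it was 0.66 (limma adjusted p = 0.644), with overlapping groups. Within titles 38 to 46 it was -1.31 (limma adjusted p = 0.143), and both Flattop arrays lay below all 3 Lgr5-high arrays. Of the 10 genes, 2 separated downward and 1 upward in this range. With 2 against 3 arrays such separation is easily reached, and its share over all genes was not counted. The test of the change between ranges, an interaction term in limma, gave -1.96 (SE 0.53), which did not pass over all genes (adjusted p = 0.489). With arrays left out in turn, the interaction ran from -2.69 without Flattop replicate 2 (limma adjusted p = 0.0808) to -1.23 without Flattop replicate 1 (limma adjusted p = 0.768), and 0.0808 was the lowest for any of the 10 genes under the alternatives run. Only 0.00902% of all genes passed this interaction test, and 7.39% had an unadjusted p under 0.05 in it, as Ryk did (unadjusted p = 0.00509 by limma).

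The same Flattop arrays also differed in other respects. Replicates 1 to 4 had lymphocyte list means of 8.74, 9.28, 11.17 and 10.47, Lgr5 intensities of 9.19, 9.65, 6.44 and 8.21, and Cdh1 (E-cadherin) intensities of 11.32, 11.25, 10.42 and 10.69. Replicates 3 and 4, where Ryk was low and Wnt5b high, were thus the arrays with the highest lymphocyte signal and the lowest Lgr5 and Cdh1. The part of these in the values of Ryk and Wnt5b was not tested.

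For the 2 genes whose SD over all arrays was at least 0.5, Ryk and Fzd6, the genes with the most similar profile were sought among 17279 genes, by the root mean square difference of gene-centred log2 intensity over 10 arrays. Nearest to Ryk were Yipf1 (0.27), the kinase gene Cdc42bpa (0.30), whose product acts downstream of the small GTPase Cdc42, and the RNA-binding protein gene G3bp1 (0.30). Cdc42bpa read 6.80, 6.44, 4.88 and 4.71 in Flattop replicates 1 to 4, low in the same arrays as Ryk. Nearest to Fzd6 were Mthfd1 (0.24), a folate enzyme gene, Pxylp1 (0.25) and the protocadherin gene Pcdh19 (0.25). Mthfd1 stood at 8.11 and 8.62 in Lgr5-high replicates 1 and 3, its highest values. These genes were picked for their likeness over the same arrays, so shared high and low arrays follow from the choice. A link between any of them and Ryk or Fzd6 was not tested.

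**Figure D3:**
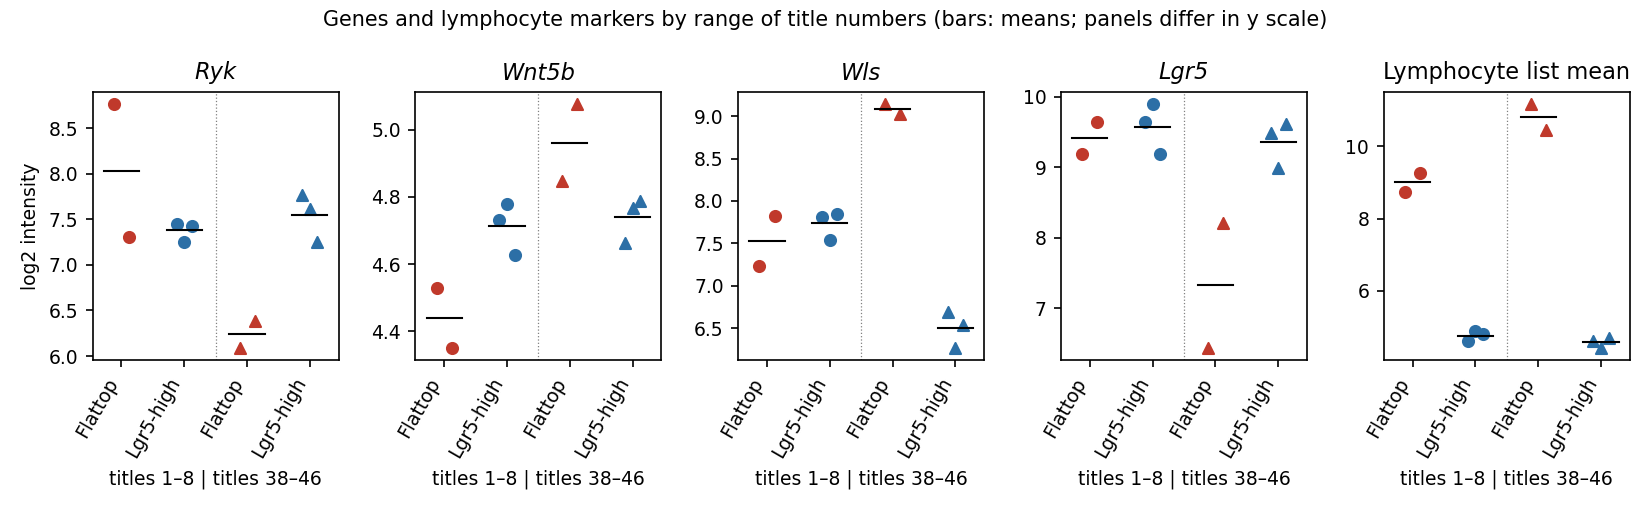
Log2 intensity of Ryk, Wnt5b, Wls and Lgr5 and the mean of the lymphocyte list on each array, with Flattop (red) left of Lgr5-high (blue) within titles 1 to 8 (circles) and within titles 38 to 46 (triangles), bars for means and a y scale per panel. In titles 38 to 46 the Flattop arrays lie below Lgr5-high for Ryk (6.24 and 7.55) and Lgr5 (7.33 and 9.36) and above it for Wnt5b (4.96 and 4.74) and Wls (9.08 and 6.50). The share of all genes that separate within a range was not counted. The lymphocyte list mean is above Lgr5-high in both ranges, at 8.74 to 11.17 in Flattop and 4.43 to 4.88 in Lgr5-high arrays.

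The rest of the Wnt pathway was read from 7 further lists by role, with 94 genes measured, chosen with earlier results of these data known. None of the 94 passed in limma over all genes. The unadjusted p was under 0.05 for 4 genes toward higher and 3 toward lower values in Flattop, 7.45% of the 94, against 9.78% of all genes. Medians ran from -0.18 to 0.21 over the lists.

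The 15 other Wnt ligands had differences from -0.33 to 0.14, with a median of -0.18 and 13 of 15 negative. Negative differences made up 61.5% of all genes and 70.2% of those with a mean of 4 to 5. Wnt10a, usually a canonical ligand, was at 5.13 ± 0.22 (SD, n = 4) for Flattop and 5.45 ± 0.10 (SD, n = 6) for Lgr5-high (-0.32, limma adjusted p = 0.441). Wnt3, a Wnt made by Paneth cells and named here after its values were seen, was at 4.43 ± 0.31 and 4.30 ± 0.21 (0.14, limma adjusted p = 0.800). Both Wnt3 means are low, and whether they are above background is not known. The 7 other Frizzled genes had a median difference of -0.12, with Fzd1 at -0.26 (limma adjusted p = 0.541) and Fzd8 at 0.27 (limma adjusted p = 0.637). Of the 10 other co-receptor genes Ptk7, a planar polarity pseudokinase that binds Wnt ligands, was at 4.21 ± 0.14 (SD, n = 4) for Flattop and 4.51 ± 0.21 (SD, n = 6) for Lgr5-high (-0.30, limma adjusted p = 0.508), and the list median was -0.03.

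Among 8 genes of Wnt secretion, Wls, the carrier that brings all lipid-modified Wnt proteins to the cell surface, had the largest difference, beside a list median of 0.13. Wls read 7.23, 7.82, 9.14 and 9.02 in Flattop replicates 1 to 4, and 7.81, 7.54, 7.85, 6.70, 6.27 and 6.53 in Lgr5-high replicates 1 to 6. It averaged 8.30 ± 0.93 (SD, n = 4) and 7.12 ± 0.70 (SD, n = 6), and the difference of 1.19 (SE 0.45) did not pass (limma adjusted p = 0.411). Both groups divided by title range, Flattop upward and Lgr5-high downward in titles 38 to 46. The Wls difference was -0.21 in the low range and 2.58 in the high range, and the interaction term of 2.79 missed the threshold (limma adjusted p = 0.067).

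Secreted modulators of Wnt included Sfrp5, a Frizzled-related decoy protein that can bind Wnt5a in mice. Sfrp5 was at 5.36, 5.25, 4.62 and 4.96 in Flattop replicates 1 to 4, and at 5.31 to 7.21 in the Lgr5-high arrays. Only Flattop replicate 1 overlapped with Lgr5-high replicate 3, the lowest of its group. The difference of -1.35 (SE 0.37) was the most negative of the pathway lists and did not pass (limma adjusted p = 0.183). The 15 modulators together had a median of -0.14. The 5 genes listed for Frizzled turnover had a median of -0.01, with Usp8 and Zranb1, deubiquitinase genes, at 0.16 and 0.13 (limma adjusted p = 0.859 and 0.906).

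Of 34 measured transducer genes 26 had positive and 8 negative differences, with a median of 0.21. Over all genes 61.5% of differences were negative, from 43.6% to 77.3% by brightness class. Nfatc1, a calcium-regulated transcription factor also active in lymphocytes, read 5.46, 5.90, 7.19 and 5.73 in Flattop replicates 1 to 4, above the highest Lgr5-high value of 5.09. Its difference was 1.28 (SE 0.32, limma adjusted p = 0.126). Plcb1, a phospholipase that feeds calcium signalling, was at 0.62 (limma adjusted p = 0.189) and Flna, the actin cross-linker filamin A, at 0.35 (limma adjusted p = 0.493). Nfatc1 was highest in Flattop replicate 3, the array with the highest lymphocyte list mean, and the part of lymphocytes in this value was not tested.

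**Figure D4:**
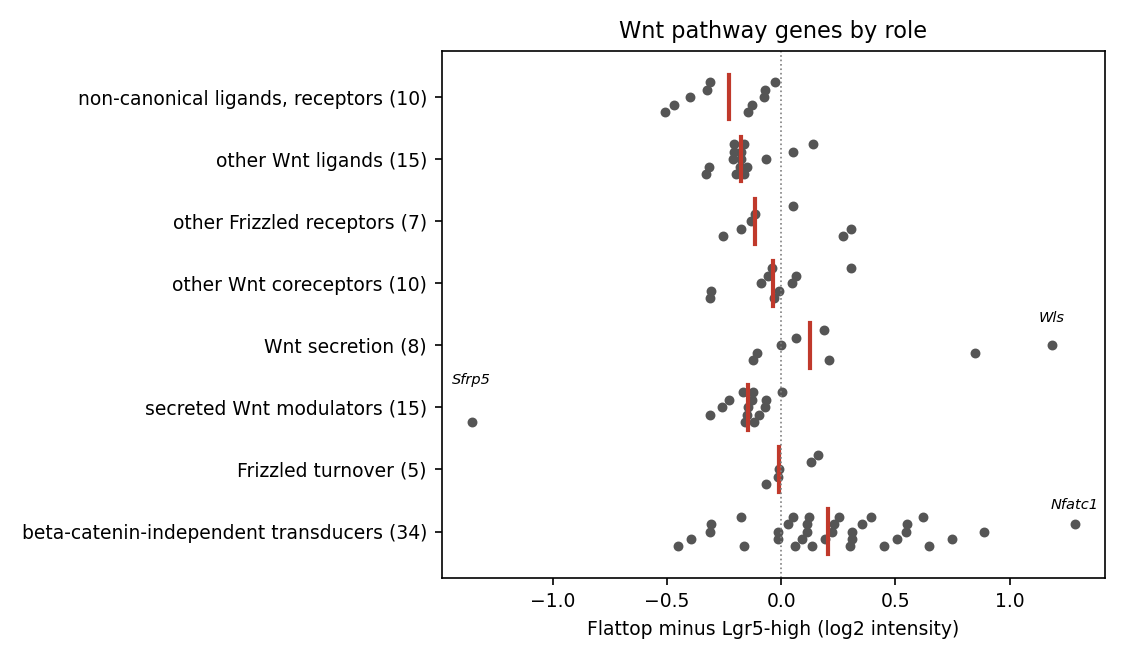
Differences in log2 intensity, Flattop minus Lgr5-high, of each measured gene of the 10 and of 7 further Wnt pathway lists (points, number of genes in brackets, spread vertically for legibility) with the median of each list (red bar). Sfrp5 (-1.35), Wls (1.19) and Nfatc1 (1.28) are the genes beyond 1 in either direction, and none of the genes shown passed the test.

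Other cells in the samples were read from marker lists. Epcam, an epithelial surface protein, was at 10.84 ± 0.06 (SD, n = 4) for Flattop and 10.83 ± 0.12 (SD, n = 6) for Lgr5-high. All 10 measured lymphocyte genes rose, with a median difference of 5.15 and list means of 8.74 to 11.17 in Flattop and 4.43 to 4.88 in Lgr5-high arrays. Of the secretory and absorptive lists, 4 of 7 Paneth, 5 of 7 goblet, 5 of 10 enteroendocrine and 5 of 8 enterocyte genes rose, where 0.902% of all genes did. At an unadjusted p under 0.05, 7 of 7, 7 of 7, 7 of 10 and 8 of 8 of these were higher, and 1 enteroendocrine gene was lower. Mast cell markers had 3 of 6 genes higher. Crypt base stem cell genes had a median difference of -0.87, with 0 of 8 past limma's threshold and 6 lower at an unadjusted p under 0.05. No endothelial, glial and neuronal, myeloid, tuft or dissociation response gene passed (0 of 6, 5, 7, 6 and 10), and at an unadjusted p under 0.05 there were 1, 1, 2, 0 and 0 lower and 1 higher, a dissociation gene.

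Markers of the mesenchyme, the usual source of Wnt5a, did not separate the groups. Fibroblast list means were 4.55 to 5.06 in Flattop and 4.49 to 4.85 in Lgr5-high arrays, with 0 of 10 genes past limma's threshold and 1 higher at an unadjusted p under 0.05. Pdgfra, the first marker of that list, was at 3.48 ± 0.19 (SD, n = 4) and 3.65 ± 0.19 (SD, n = 6). Without detection calls, whether values this low are above background is not known. For smooth muscle the list means were 4.77 to 5.08 and 4.89 to 5.27, and for telocytes and villus tip stroma 4.76 to 5.04 and 4.89 to 5.28, with 0 genes past the threshold or an unadjusted p under 0.05 in either list by limma.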

How the data were processed

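The deposited table holds log2 intensities per probe set, made by the authors with robust multi-array averaging (RMA) in oligo 1.38.0, per the submitters' processing notes; the log2 scale also rests on the values. How the steps were ordered, and whether probe sets were filtered, is not given in the sources. Of 41345 probe sets, 23521 had 1 gene symbol, 1814 several and 16010 were not listed and stay unnamed. Genes with several probe sets were read at the one of highest mean. Groups were compared with limma 3.58.1 (lmFit, eBayes) in R 4.3.3, two-sided, with Benjamini-Hochberg adjustment over 22180 genes and a threshold of 0.05, after the method was tested on simulated data. There 57.4% of simulated log2 changes of 1 and 92.4% of those of 2 were recovered, with 10 false among 175 calls. Smaller changes, such as the differences of the 10 genes, were not simulated. Exact permutation tests used the 10 arrays. Detection calls were not used here, depth is not defined for arrays, and precision is limited by the number of arrays.

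The members and lists were chosen with earlier results of these data known. Named were all 10 genes, the genes of each pathway list with an unadjusted p under 0.05 or otherwise the 2 of smallest p, and the 3 nearest profiles. Of the marker lists only Epcam, Cdh1, Lgr5 and Pdgfra were named, and the other markers were read by list. Alternatives changed normalisation, centring, dim genes, variance prior, array weights, blocks, title ranges, probe set choice, threshold and each array. Sequences are not printed, since none bears on these values. Plots were drawn with matplotlib 3.10.9.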

Additional observations from a re-analysis of the deposited data

Results flagged for a closer look

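Wnt5b was set apart because every Flattop array lay on one side of the Lgr5-high arrays in titles 1 to 8 and on the other side in titles 38 to 46. In titles 1 to 8 the 2 Flattop arrays averaged 4.44 and the 3 Lgr5-high arrays 4.71, a difference of -0.27. In titles 38 to 46 they averaged 4.96 and 4.74, a difference of 0.22. The change between ranges was 0.49 (SE 0.22) and did not pass limma's interaction test over all genes (adjusted p = 0.679). After a second quantile normalisation it was 0.35 (limma adjusted p = 0.844). The share of all genes with such a change of side was not counted, so Wnt5b is given as values only. These values lie near the array medians, and no detection calls were at hand. No array of the 10 genes stood apart from its group by Dixon's test in 20 groups of arrays examined, where chance gives about 1 in 20.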

How the results depend on the processing

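None of the 10 genes passed the threshold under any of 23 alternative settings, and the lowest adjusted p of any difference was 0.143 (Ryk within titles 38 to 46). Of 207 alternative values of the differences 11 changed sign. Wnt5b turned to 0.040 after a second quantile normalisation, 0.036 with arrays centred, 0.001 with the replicate block and 0.222 within titles 38 to 46. Ror1 turned to 0.011 after the second quantile normalisation and 0.012 within titles 38 to 46, and Ryk to 0.658 within titles 1 to 8. With each array left out in turn, Wnt5a ranged from -0.208 to -0.057, Wnt5b from -0.150 to 0.092, Wnt9b from -0.208 to -0.041, Fzd7 from -0.152 to 0.0047, Ror1 from -0.132 to -0.0025 and Ryk from -0.866 to 0.026. Single arrays moved these by over 1.5 times: Flattop replicate 2 (Wnt5a to -0.06, Ror1 to -0.0025, Wnt5b to 0.09), 1 (Wnt5b to 0.03, Ryk to -0.87), 3 (Wnt5b to -0.07, Ror1 to -0.11, Ryk to 0.03) and 4 (Wnt5b to -0.15, Ryk to -0.07), and Lgr5-high replicate 1 (Wnt5a to -0.21), 2 (Fzd7 to -0.15, Ror1 to -0.04, Wnt5b to -0.01), 3 (Fzd7 to 0.0047, Wnt5b to -0.04), 4 (Wnt5a to -0.07, Ror1 to -0.0084, Wnt5b to -0.04) and 6 (Wnt5a to -0.06, Wnt9b to -0.04, Ror1 to -0.13, Wnt5b to -0.01). Of 127 alternative interaction values 9 changed sign and none passed, with ranges over arrays left out of -0.247 to 0.092 for Wnt9b, -0.015 to 0.750 for Fzd6, -0.131 to 0.261 for Fzd7 and -0.103 to 0.241 for Ror2. The count of all genes called, 203, was 57 with the replicate block, 77 and 85 within the low and high title range, 123 when all probe sets were tested, 311 at a threshold of 0.1 and 123 to 215 with each array left out (123 without Flattop replicate 2, 132 without Lgr5-high replicate 4). Leaving out dim genes removed Wnt5a, Fzd3 and Ror1, so these have no value there. Deviations of same-numbered replicates from their group means correlated at 0.297, -0.206, -0.010 and 0.029 over genes (replicates 1 to 4). Only for Flattop replicate 1 was the same-numbered Lgr5-high array the closest. Such correlations cannot decide whether the numbers pair the samples. Small values and the absence of detection calls limit what can be read from Wnt5a, Fzd3 and Ror1. The same holds in part for Wnt5b and Fzd6, whose probe sets lay near the array medians.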

Other observations

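The sign of the difference went with brightness across all genes. Of 5246 genes with a mean log2 intensity under 4, 77.3% were lower in Flattop and the median difference was -0.09, with 0% called. Of 3005 genes at 6 to 7, 43.6% were lower, the median was 0.07 and 1.76% were called. A mean under 5 was found for 8 of 15 other Wnt ligands, 9 of 15 secreted modulators and 6 of 34 transducers. The medians of these lists were -0.18, -0.14 and 0.21, while the medians of the brightness classes ran from -0.10 to 0.07. The part of brightness in the list medians and the cause of the gradient were not tested.

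Mean differences of the 5 Frizzled turnover genes ran from -0.07 to 0.16. The ubiquitin ligase gene Rnf43, a stem cell feedback gene that clears Frizzled from the membrane, was at 8.42 ± 0.46 (SD, n = 4) for Flattop and 8.43 ± 0.39 (SD, n = 6) for Lgr5-high, and its partner Znrf3 at 6.28 ± 0.97 and 6.29 ± 0.69. Porcn, which attaches the lipid to Wnt proteins, was at 5.47 ± 0.13 and 5.47 ± 0.27. None of these differences passed limma (adjusted p = 0.990, 0.997 and 0.999). Their SEs were 0.25, 0.46 and 0.16, so equal levels are not shown. These 3 genes were named after their values were seen.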
